A study of Mus musculus with 5 samples.

Results

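The genes described are the 10 members of the superoxide dismutase, catalase and peroxiredoxin families listed by symbol: Sod1, Sod2, Sod3, Cat and Prdx1 to Prdx6. All 10 were found by symbol among the 29267 genes of the deposited tables, with 1 gene ID each. The 5 RNA-seq libraries, each alone in its group, came from embryonic fibroblasts of ICR mice undergoing reprogramming. At day 4, a library labelled as expressing CypD (the product of Ppif, a mitochondrial cyclophilin that regulates the permeability transition) stood against a library labelled as expressing Flag. At day 8, a mastoparan library (a peptide from wasp venom) and a paraquat library (a redox-cycling herbicide that generates superoxide) stood against a library with no treatment. The genotype label of all 3 day-8 libraries also names CypD expression. The series title names the mitoflash, a brief superoxide signal in a single mitochondrion, as the regulator of interest. The sources used here do not give doses, the reprogramming factors, the promoter driving CypD or whether cultures were pooled.

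Superoxide, a by-product of respiration, is turned by the dismutases into hydrogen peroxide and oxygen. Sod1 is the copper-zinc enzyme of the cytosol and intermembrane space, Sod2 the manganese enzyme of the mitochondrial matrix and Sod3 the secreted copper-zinc enzyme. Hydrogen peroxide is removed by catalase in peroxisomes and by peroxiredoxins, thiol peroxidases that are mostly reduced again by thioredoxin. Prdx1, Prdx2 and Prdx6 act mainly in the cytosol, Prdx3 in mitochondria, Prdx4 in the endoplasmic reticulum and Prdx5 in mitochondria, peroxisomes and the cytosol.

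The total expected count was 3426650 in the CypD library, 2497654 in the Flag library, 2834126 in the mastoparan library, 2425950 in the paraquat library and 3016390 in the day-8 control. With 1 library per group no difference has a replicate check, there is no test between conditions, and every interval below covers counting error only. Ppif stood at 761 scaled CPM (CPM, the count as a rate per 1e+06 counts of the TMM-scaled library) in the CypD library and at 44.2 in the Flag library, 17.2-fold higher (95% interval 14.3 to 21.0). It stood at 33.3, 34.2 and 29.2 scaled CPM in the mastoparan, paraquat and day-8 control libraries, so Ppif was not above the Flag level in any library of day 8, in spite of their genotype label. All 10 fibroblast markers had counts in each library, with sums from 6522 to 7066 scaled CPM. Vim made up 3406 to 3864 of these, and single markers moved in both directions. Dcn had 54.2 and 48.9 scaled CPM in the CypD and Flag libraries, and 26.7, 13.0 and 24.0 in the mastoparan, paraquat and control libraries. Thy1 was higher at day 8, with 47.8 and 33.9 against 60.4, 77.1 and 66.5 in the same order. The 7 epithelial markers summed to between 628 and 724 scaled CPM in the day-8 libraries and to 191 and 207 in the CypD and Flag libraries. The 8 erythroid markers, a cell type rich in Prdx2, had at most 5 counts in any library, and the 8 pluripotency markers summed to at most 10.4 scaled CPM. In bulk RNA, fewer cells of a type and less RNA per cell cannot be told apart.

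The promoters of 8 of the 10 genes are in the RefSeq table for GRCm38.p6, the build of which mm10 is another name. 4 are shown. Prdx1 and Sod1 hold the core of the antioxidant response element, the site through which NRF2 acts. Cat is the gene that was lower on scaled CPM in each perturbed library than in its control. Prdx5 is the well-counted gene with the widest range. Each is written 5′ to 3′ on the gene's strand, from 250 bases before to 50 bases after the annotated start. Capitals mark matches, on either strand, to TGACNNNGC (the antioxidant response element core), TGACTCA (the AP-1 site), GTAAACA (a FOXO site), TATAAA and CCAAT.
Prdx1 (chr4:116685349-116685648, plus strand): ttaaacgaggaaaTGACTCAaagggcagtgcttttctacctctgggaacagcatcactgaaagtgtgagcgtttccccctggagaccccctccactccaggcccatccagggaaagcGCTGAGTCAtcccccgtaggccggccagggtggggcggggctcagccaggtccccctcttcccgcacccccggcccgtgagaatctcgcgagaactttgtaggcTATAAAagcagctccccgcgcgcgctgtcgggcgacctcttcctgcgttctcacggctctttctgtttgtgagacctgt
Sod1 (chr16:90220512-90220811, plus strand): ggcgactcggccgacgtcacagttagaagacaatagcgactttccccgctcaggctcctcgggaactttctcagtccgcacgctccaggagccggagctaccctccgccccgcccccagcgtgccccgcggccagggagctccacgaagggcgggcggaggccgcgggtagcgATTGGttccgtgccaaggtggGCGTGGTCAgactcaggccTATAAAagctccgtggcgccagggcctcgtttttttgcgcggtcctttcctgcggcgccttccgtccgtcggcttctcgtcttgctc
Cat (chr2:103485104-103485403, minus strand): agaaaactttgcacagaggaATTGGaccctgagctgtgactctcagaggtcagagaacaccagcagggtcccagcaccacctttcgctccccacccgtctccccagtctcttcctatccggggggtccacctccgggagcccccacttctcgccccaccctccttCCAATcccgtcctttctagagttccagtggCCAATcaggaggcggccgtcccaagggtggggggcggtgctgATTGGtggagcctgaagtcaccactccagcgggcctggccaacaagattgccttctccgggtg
Prdx5 (chr19:6910057-6910356, minus strand): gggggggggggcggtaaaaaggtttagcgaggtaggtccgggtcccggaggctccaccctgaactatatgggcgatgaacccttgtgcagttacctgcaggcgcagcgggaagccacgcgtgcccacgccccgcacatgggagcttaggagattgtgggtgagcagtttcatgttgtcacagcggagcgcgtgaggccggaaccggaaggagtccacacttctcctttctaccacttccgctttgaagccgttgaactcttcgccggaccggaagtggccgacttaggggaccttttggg

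The antioxidant response element core was found in 2 of the 8 windows, Prdx1 and Sod1, and in 12.4% of all 32851 promoter windows of the table. In Prdx1 that match reads GCTGAGTCA on the printed strand and overlaps an AP-1 match, and a further AP-1 match lies near the distal end of the window. AP-1 matches were in 5.20% of all windows and in 1 of the 8. The Cat window holds 4 CCAAT matches, and 37.4% of all windows hold at least 1. TATAAA was in 3 of the 8 windows (13.6% of all), and the FOXO letters were in none of the 8 (3.65% of all). A match describes these letters, not a site in use.

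On the deposited TPM scale, which is per transcript length, the families were dominated by 3 genes. Sod1 (ENSMUSG00000022982; mm10 chromosome 16, 90220754 to 90226329) had 1558 TPM in the CypD library, 1517 in the Flag library, 1584 in the mastoparan library, 1824 in the paraquat library, and 1536 in the control. Prdx2 (ENSMUSG00000005161; chromosome 8, 84969587 to 84974834) had 1578, 1460, 1370, 1509 and 1385 TPM in the CypD, Flag, mastoparan, paraquat and control libraries. Sod1 was the most abundant member in 4 libraries and Prdx2 in the CypD library, and their ranges over the 5 libraries overlap. Prdx1 (ENSMUSG00000028691; chromosome 4, 116685544 to 116700822) came next in each library, with 1430 and 1346 TPM in the CypD and Flag libraries and 1037, 912 and 1006 TPM in the mastoparan, paraquat and control libraries. Its range overlaps that of Prdx2 and stands apart from that of the next gene.

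A middle group of 3 genes followed. Prdx5 (ENSMUSG00000024953; chromosome 19, 6906697 to 6910106) lay between 240 and 400 TPM, Prdx6 (ENSMUSG00000026701; chromosome 1, 161240112 to 161251219) between 184 and 249 TPM, and Prdx4 (ENSMUSG00000025289; chromosome X, 155323918 to 155340754) between 155 and 232 TPM. The range of Prdx6 overlaps both others, and those of Prdx5 and Prdx4 do not overlap. Lower still were the mitochondrial Prdx3 (ENSMUSG00000024997; chromosome 19, 60864051 to 60874556) at 84.3 to 127 TPM, Sod2 (ENSMUSG00000006818; chromosome 17, 13006846 to 13040063) at 74.1 to 80.1 TPM and Cat (ENSMUSG00000027187; chromosome 2, 103453849 to 103485160) at 46.4 to 72.8 TPM. These 3 kept their order in each library and their ranges do not overlap. Sod3 (ENSMUSG00000072941; chromosome 5, 52363791 to 52371418) was last in each library, between 0.50 and 2.26 TPM. Sod1 held 95.02% to 96.0% of the dismutase TPM, Sod2 3.90% to 4.85% and Sod3 at most 0.138%.

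**Figure D1:**
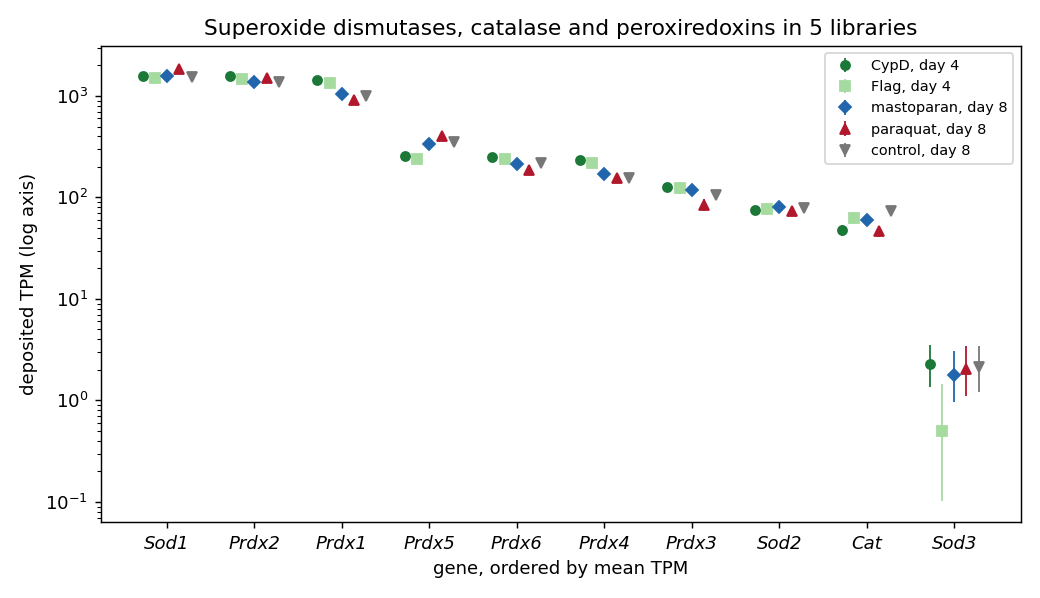
Deposited TPM on a log axis for each of the 10 genes, ordered by mean TPM, with 1 point per library and 95% Poisson counting intervals as bars (mostly smaller than the points). Sod1, Prdx2 and Prdx1 lie between 912 and 1824 TPM, and Sod3 lies at or below 2.26 TPM in each library.

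Sequence shared with other genes was small for most of these genes, and larger for Prdx5 and Sod1. Of the 49-base windows of the Prdx5 transcripts, 15.9% lie in the overlapping gene Trmt112, and 3.43% of those of Prdx2 lie in Rnaseh2a. The other 8 genes share at most 1.48% with all other genes of the tables together, and no gene there shares 20% with a member. Of the Sod1 windows, 23.8% also occur in the processed pseudogene Gm8566, and smaller shares of Prdx1 occur in Gm21399 (5.57%) and Gm7204 (4.76%) and of Prdx2 in Tdpx-ps1 (4.63%). The tables used here do not list these 4 pseudogenes, so how their reads were assigned is not known.

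The first comparison asks what differs when CypD is expressed for 4 days. Of the 10 genes, 9 were higher in the CypD library on the scaled CPM scale, where 47.0% of all genes were, and Cat was lower. With the trend of log2 ratios along transcript length removed, 6 were above 0 and 4 below, and all but Sod3 differed by little on either scale. Sod1 stood at 645 scaled CPM in the CypD library against 607 in the Flag library (1.06-fold, 0.996 to 1.14). Sod2 stood at 198 and 194 scaled CPM in the CypD and Flag libraries (1.02-fold, 0.908 to 1.15), a difference not detectable at this depth. The peroxiredoxins lay within a narrow band, from 1.06-fold for Prdx5 to 1.10-fold for Prdx4. Prdx1 had 1016 scaled CPM in the CypD library against 948 in the Flag library (1.07-fold, 1.02 to 1.13), and Prdx2 had 750 against 703 (1.07-fold, 1.00 to 1.13). The intervals of the other peroxiredoxins held 1.

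Catalase stood apart from the rest in direction on scaled CPM. With the length trend removed, Sod1 (-0.03), Prdx2 (-0.02) and Prdx5 (-0.006) were also below 0. The Cat count was 280 for CypD and 243 for the smaller Flag library, or 81.1 and 95.9 scaled CPM, 1.18 times lower (interval 0.992 to 1.41 times, which just holds no difference). The Sod3 count was 19 for CypD and 3 for Flag, a ratio of 4.65 with an interval from 1.37 to 24.5. The day-8 libraries had 13 (mastoparan), 14 (paraquat) and 16 (control) counts of Sod3, so it is the Flag library that is low among the 5. Sod3 was the only member past 1.5-fold in this comparison, where 6.01% of 13244 genes were at least 1.5-fold higher and 6.83% at least 1.5-fold lower. Among the 7841 genes averaging 20 CPM or more, only 0.357% were that much higher and 0.510% lower. The interval lay above 1 for 3 members, against 4.13% of all genes, and below 1 for none, against 4.19%. With at least 20 CPM it lay above 1 for 2 members, against 5.04% of such genes, and 4.96% had one below 1. The median log2 ratio of the 10 genes was 0.09, beside -0.02 over all genes, and 0.05 once the trend of log2 ratios along transcript length was removed.

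**Figure D2:**
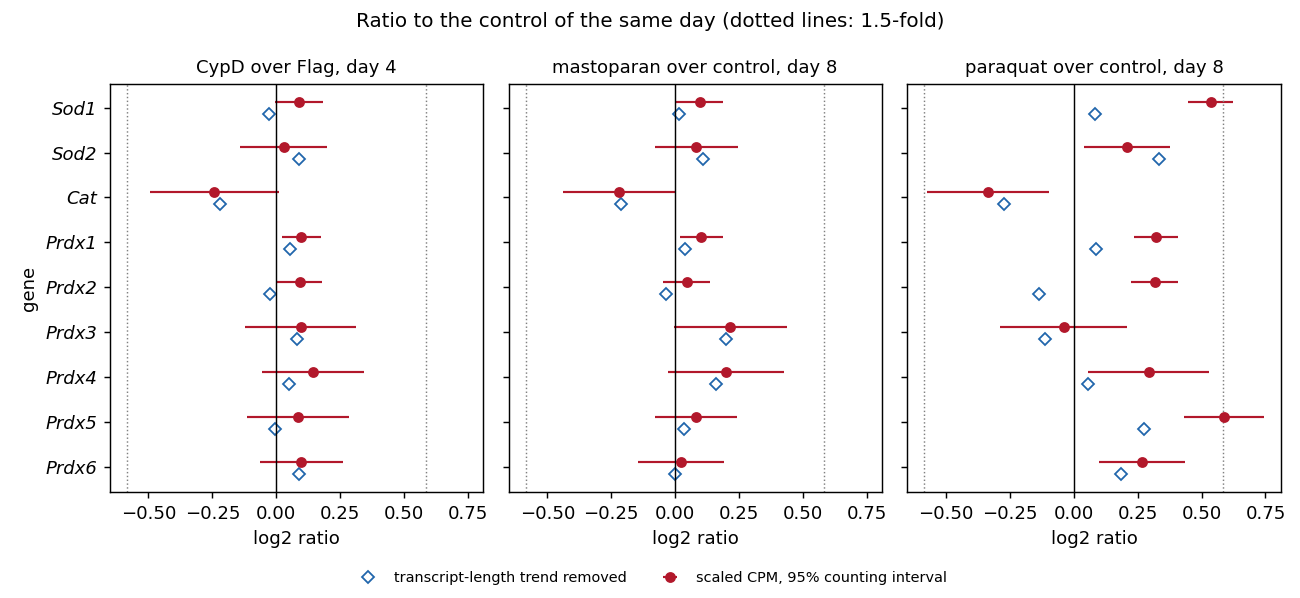
Log2 ratio of each of 9 genes (Sod3 is left out for its few counts) in 3 comparisons with the control of the same day. Filled circles are ratios of scaled CPM with 95% counting intervals, open diamonds the log2 ratio with the transcript-length trend removed, and dotted lines 1.5-fold. Cat lies left of 0 in each panel, and in the paraquat panel Sod1 and Prdx5 lie farthest right before the length trend is removed.

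The second comparison asks what differs in the mastoparan library at day 8, and the differences were again small. Sod1 had 682 scaled CPM in the mastoparan library against 638 in the control (1.07-fold, 1.00 to 1.14), and Prdx1 had 794 and 739 in the same libraries (1.07-fold, 1.01 to 1.14). The largest ratios were those of Prdx3, with 122 scaled CPM in the mastoparan library against 105 in the control (1.16-fold, 0.996 to 1.36), and of Prdx4, with 116 and 101 (1.15-fold, 0.980 to 1.34). Both intervals hold 1. Cat was lower, with 109 scaled CPM in the mastoparan library against 127 in the control (1.16 times lower, 1.00 to 1.36). No member was past 1.5-fold, against 6.22% of 13640 genes higher and 6.66% lower. Few well-counted genes were either, with 0.289% higher and 0.326% lower among the 7969 of at least 20 CPM. The interval lay above 1 for 2 members (4.08% of all genes) and below 1 for 1 member, Cat (3.28% of all genes). Those shares were 5.40% and 3.45% of genes of at least 20 CPM.

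Paraquat, the superoxide generator, was set against the same day-8 control as mastoparan, and its scaled CPM differences were larger. Sod1 had 925 scaled CPM in the paraquat library against 638 in the control (1.45-fold higher, 1.36 to 1.54). Prdx5 had 313 scaled CPM in the paraquat library against 209 in the control (1.502-fold higher, 1.35 to 1.67), and was the only member past 1.5-fold. Prdx5 was not past 1.5-fold with library totals, with the length trend or the length and GC trends removed, with the most abundant genes left out of the scaling, when summed with Trmt112, or on deposited TPM, where Cat (log2 ratio -0.64) was the 1 member past it. In both genes the paraquat library was the highest of the 5, as it was for 6 members in all and for 25.01% of genes. Prdx1 had 924 scaled CPM in the paraquat library against 739 in the control (1.25-fold, 1.18 to 1.33), and Prdx2 had 795 against 639 (1.25-fold, 1.17 to 1.33). Prdx4 (1.22-fold), Prdx6 (1.202-fold) and the mitochondrial Sod2 (1.15-fold) had smaller ratios with intervals above 1.

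The mitochondrial peroxiredoxin gene Prdx3 and Cat were not higher. Prdx3 had 102 scaled CPM in the paraquat library against 105 in the control (0.973-fold, 0.819 to 1.15). Cat had 233 counts in the paraquat library against 393 in the control, or 101 and 127 scaled CPM (1.26 times lower, 1.07 to 1.49). Of the 10 genes, 7 had an interval above 1, against 11.3% of 13666 genes, and 1 had an interval below 1, against 9.83%. Of the 7881 genes averaging 20 CPM or more, as 9 of the 10 do, those shares were 16.8% and 12.7%. At 1.5-fold the background was 9.31% higher and 10.5% lower over all genes, and 3.68% and 3.41% over those of at least 20 CPM.

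Transcript length moved with these ratios, and 7 of the 10 genes have mean transcript lengths under 1500 bases. Genes of at least 20 CPM were split by length into 5 classes of like size. In the paraquat comparison the shortest class (129 to 1338 bases) had a median log2 ratio of 0.33, and the longest (from 4036 bases) one of -0.18. For mastoparan over control the same medians were 0.06 and -0.03, and for CypD over Flag 0.08 and -0.08. With the trend removed, the log2 ratio in the paraquat comparison was 0.08 for Sod1 in place of 0.54, and 0.28 for Prdx5 in place of 0.59. Prdx2 moved to -0.14, and Prdx1 and Prdx4 to 0.09 and 0.05. Sod2, whose transcript is long (3824 bases), moved the other way, to 0.33, above 91.9% of genes of at least 20 CPM. Cat, at 2518 bases on average, was at -0.27 with the trend removed, above only 12.4% of those genes. The median of the 10 genes was 0.28, beside -0.03 over all genes, and 0.09 with the trend removed.

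**Figure D3:**
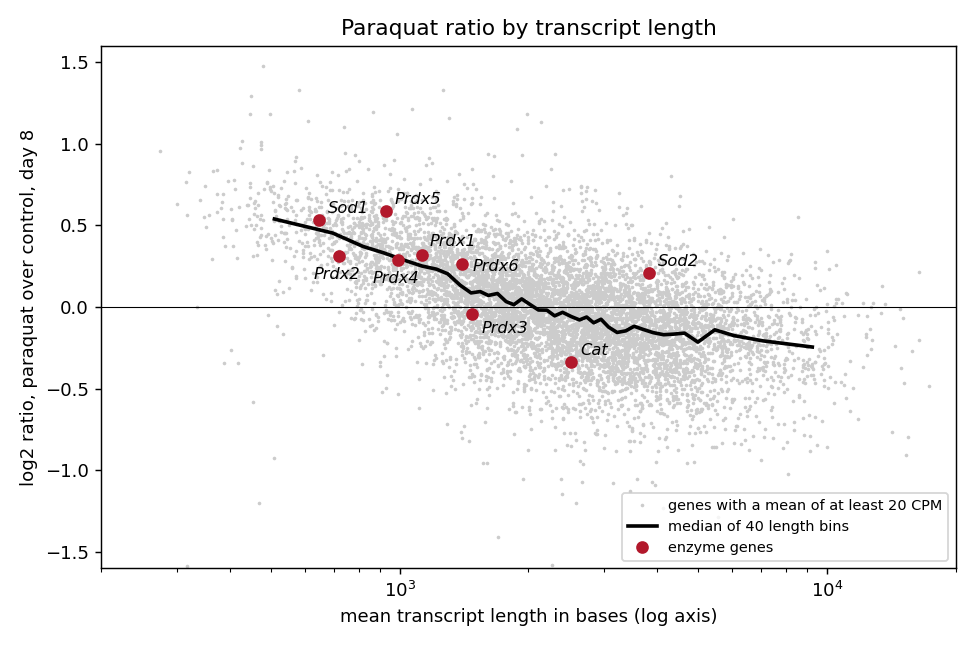
Log2 ratio of paraquat over control against mean transcript length on a log axis for 7881 genes averaging 20 CPM or more (grey), with the median of 40 length bins of those genes (line) and the 9 enzyme genes at that level (red). The axes leave out 18 genes. The line descends with length, Sod1 and Prdx1 lie close to it, Sod2 and Prdx5 above it and Cat below it.

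On the deposited TPM scale the median of all genes was -0.28 in this comparison, and that of the 10 genes was -0.066, 0.22 above it. Sod1 (log2 ratio 0.25) and Prdx5 (0.20) were still above 0, Cat was at -0.64 and Prdx3 at -0.33. The average transcript length behind the TPM of Prdx6 was 1570 bases in the paraquat library against 1337 in the control, and that of Prdx1 was 1243 and 1106. For these 2 genes the log2 TPM ratio was -0.26 and -0.14, where that of scaled CPM was 0.27 and 0.32. Across the settings tried in this comparison, Sod1 and Prdx5 stayed above 0 and Cat below it, Prdx4 stayed above 0, and the other 6 genes changed sign in at least 1 setting.

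Between the treatments, Sod1 had 682 scaled CPM in the mastoparan library against 925 in the paraquat library (1.36 times lower, 1.27 to 1.44), and Prdx5 had 221 against 313 (1.42 times lower, 1.27 to 1.58). Prdx3 had 122 scaled CPM in the mastoparan library against 102 in the paraquat library (1.19-fold higher, 1.01 to 1.42). Cat had 109 and 101 scaled CPM in the mastoparan and paraquat libraries (1.08-fold, 0.912 to 1.29). No member was past 1.5-fold, against 10.6% of 13680 genes higher and 9.32% lower. For the 7874 genes of at least 20 CPM those shares were 2.87% and 2.31%. The interval lay below 1 for 5 members (10.4% of all genes) and above 1 for 1 member (8.89%). With at least 20 CPM, 15.01% of genes had an interval below 1 and 11.8% above 1. Length moved with this comparison too, with medians of -0.27 in the shortest and 0.15 in the longest of the 5 classes. With the length trend removed the log2 ratio of Sod1 was -0.07 in place of -0.44, and that of Prdx2 was 0.10 in place of -0.27. On deposited TPM the log2 ratios of Prdx1 and Prdx6 were 0.19 and 0.20, where those of scaled CPM were -0.22 and -0.24. Of the 5 members with an interval below 1, Sod1 and Prdx5 stayed below 0 in each setting tried.

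Catalase was thus below its own control in the CypD, mastoparan and paraquat libraries, the mastoparan and paraquat libraries sharing 1 control. On scaled CPM it was the only member so placed, where 19.3% of 13584 genes were, and its interval held no difference for CypD. With the length trend removed, Prdx2 was also below 0 in all 3 comparisons (-0.02 for CypD, -0.04 for mastoparan and -0.14 for paraquat). The log2 ratio of Cat stayed below 0 in each setting tried, between -0.40 and -0.21 for CypD, -0.26 and -0.19 for mastoparan and -0.64 and -0.24 for paraquat. The reverse, above the control in all 3 libraries, held on scaled CPM for 7 members and for 17.1% of genes. With the length trend removed it held for Sod2, Prdx1, Prdx4 and Prdx6 only, and on deposited TPM for Sod1 and Prdx4 only. The share of all genes so placed was not counted on those scales.

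Over genes of at least 20 CPM, log2 ratios had an SD of 0.53 across genes for the day-8 control over Flag, against 0.33 for paraquat, 0.19 for mastoparan and 0.20 for CypD over their controls. Prdx1 had 794 (mastoparan), 924 (paraquat) and 739 (control) scaled CPM at day 8, against 1016 (CypD) and 948 (Flag) at day 4. Prdx4, the peroxiredoxin of the endoplasmic reticulum, had 116, 124 and 101 scaled CPM in the mastoparan, paraquat and control libraries, against 151 and 137 in the CypD and Flag libraries. Both were lower in each day-8 library than in either day-4 library. Prdx5 ran the other way, with 221, 313 and 209 scaled CPM in the mastoparan, paraquat and control libraries and 149 and 140 in the CypD and Flag libraries.

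Cat was also higher at day 8, with 109, 101 and 127 scaled CPM in the mastoparan, paraquat and control libraries, against 81.1 and 95.9 in the CypD and Flag libraries. Sod2 lay between 206 and 237 scaled CPM at day 8 and at 198 and 194 at day 4, a narrow gap. In all, 3 members lay above both day-4 libraries in all 3 day-8 libraries, where 28.5% of 13584 genes did, and 2 lay below, where 28.1% did. With the paraquat library left out, Prdx2 and Prdx6 also lay below both day-4 libraries, which made 4 members below (33.1% of genes) and 3 above (34.3%). On the deposited TPM scale 1 member, Prdx5, lay above (20.3% of genes) and 4 below (32.6%). Cat and Sod2 overlapped between days on that scale.

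**Figure D4:**
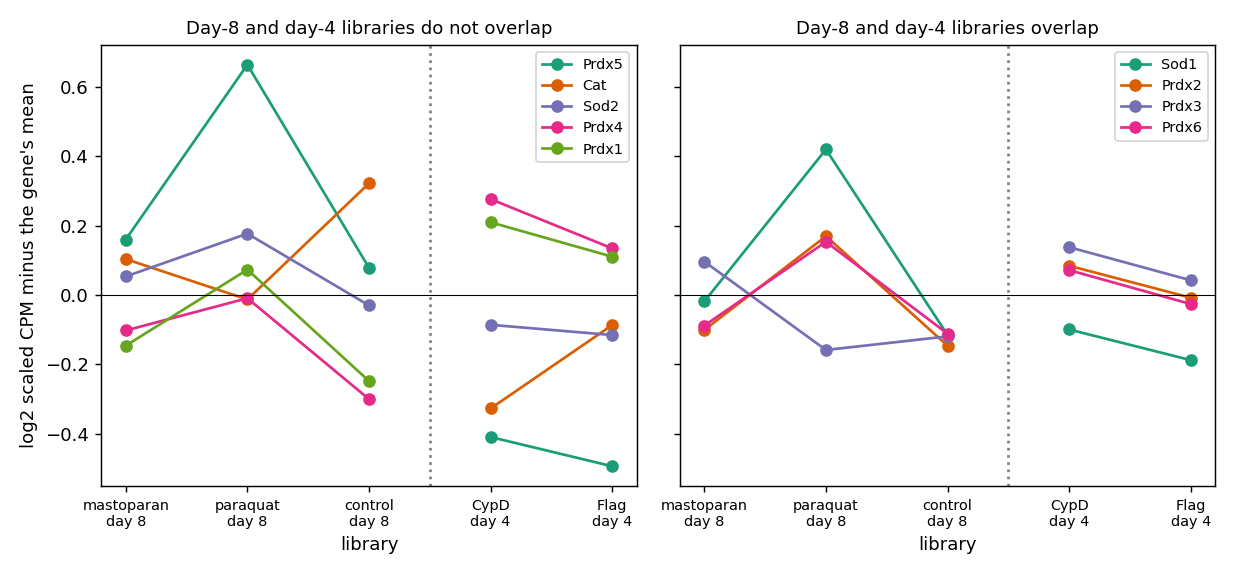
Log2 scaled CPM of each gene minus its mean over the 5 libraries, day-8 libraries left of the dotted line and day-4 libraries right of it. Lines join the values of 1 gene. Prdx1 and Prdx4 are lower and Prdx5, Cat and Sod2 higher in all 3 day-8 libraries (left panel), and the 4 genes in the right panel overlap between days (Sod3 is left out for its few counts).

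Set control against control, Prdx5 was 1.49-fold higher in the day-8 control than in the day-4 Flag library (1.31 to 1.70) and Cat 1.33-fold higher (1.13 to 1.57). Prdx4 was 1.35 times lower in the day-8 control (1.16 to 1.58), Prdx1 1.28 times lower (1.21 to 1.36) and Prdx2 1.10 times lower (1.03 to 1.17). Sod1 (1.05-fold), Sod2 (1.06-fold), Prdx3 (0.894-fold) and Prdx6 (0.942-fold) had intervals that held 1. Once the length trend was removed, Prdx5 had a log2 ratio of 0.38 in place of 0.57. Prdx4 moved from -0.43 to -0.63, past 1.5-fold lower, and Prdx2 from -0.14 to -0.30. Sod1 changed sign, from 0.07 to -0.09, and Cat (0.46) and Sod2 (0.18) stayed above 0. Sod3, with 16 counts against 3, had a ratio of 4.38 (1.25 to 23.5) and was the only member past 1.5-fold, against 20.04% of 13540 genes higher and 13.8% lower. The interval lay above 1 for 3 members (18.4% of all genes) and below 1 for 3 (18.9%). With at least 20 CPM it lay above 1 for 2 members (19.9% of such genes) and below 1 for 3 (26.8%). Summed with the overlapping gene Trmt112, an alternative chosen after seeing the data, Prdx5 had a log2 ratio of 0.29 here in place of 0.57. These 2 libraries also come from separate experiments with different construct labels, so day and experiment cannot be told apart. The epithelial marker sum given above moved with day in the same direction as Prdx5 and Cat, and its part in these values was not tested.

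The makeup of the peroxiredoxins by TPM differed between days accordingly. Prdx1 held 31.9%, 28.1% and 31.2% of the peroxiredoxin TPM in the mastoparan, paraquat and control libraries, and 36.9% and 37.1% in the CypD and Flag libraries. Prdx5 held 10.5%, 12.3% and 10.8% in the mastoparan, paraquat and control libraries, and 6.63% and 6.61% in the CypD and Flag libraries. The summed TPM of the 6 genes was 3248, 3245 and 3220 in the mastoparan, paraquat and control libraries, against 3872 and 3628 in the CypD and Flag libraries.

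The 9 members other than Sod3 were compared with one another by the root-mean-square difference of centred log2 scaled CPM over the 5 libraries. Prdx2 and Prdx6 differed least (0.02), then Prdx1 and Prdx4 (0.06), and Prdx4 and Prdx5 most (0.55). Prdx5 had the widest range of the well-counted members, 2.24-fold between the paraquat library and the Flag library. Of 7933 genes averaging 20 CPM or more, the 5 nearest to it were Selenom (0.03), Msrb1, Cisd3, Fam173a (0.04 each) and Cdc42ep5 (0.05). Selenom, a selenoprotein gene, had 75.8, 111 and 75.2 scaled CPM in the mastoparan, paraquat and control libraries and 53.6 and 49.3 in the CypD and Flag libraries.

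The thioredoxin system, which reduces the oxidised peroxiredoxins, was measured for all 20 listed genes. In the paraquat comparison 2 of them were at least 1.5-fold higher and 1 lower, beside 9.31% and 10.5% of all genes. Those shares were 3.68% and 3.41% of genes of at least 20 CPM, for this list and for those below. The median log2 ratio of the thioredoxin list was 0.20 (0.16 with the length trend removed). Txn1, the cytosolic thioredoxin, had 724 scaled CPM in the paraquat library against 532 in the control (1.36-fold, 1.27 to 1.46), and its length-corrected log2 ratio was 0.21 in place of 0.45. Its reductase Txnrd1 had 86.6 scaled CPM in the paraquat library against 109 in the control (1.26 times lower, 1.05 to 1.51). The length-corrected log2 ratio of Txnrd1 was -0.16 in place of -0.33. Txnrd3, another reductase, was 1.68-fold higher (1.21 to 2.33), with a length-corrected log2 ratio of 0.83 in place of 0.74. Srxn1, the sulfiredoxin that repairs over-oxidised peroxiredoxins, had 45 counts in the paraquat library against 84 in the control (1.40 times lower, 0.962 to 2.05, an interval that holds no difference).

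Between days, Txnip and Txnrd1 differed more than Txn1 did. Txnip, the inhibitor that binds thioredoxin, had 651 scaled CPM in the day-8 control and 159 in the Flag library (4.08-fold higher, 3.67 to 4.55), and Txnrd1 had 109 and 205 in the same libraries (1.88 times lower, 1.64 to 2.16). Txn1 had 532 scaled CPM in the day-8 control and 539 in the Flag library (0.985-fold, 0.917 to 1.06). In CypD over Flag Txn1 was 1.11-fold higher (1.04 to 1.19), and Txnrd1 (1.00-fold) and Srxn1 (0.837-fold) had intervals that held 1. In mastoparan over control Txn1 was 1.11-fold higher (1.04 to 1.19) and Txnip 1.10 times lower (1.03 to 1.17). No thioredoxin gene was past 1.5-fold in either of these 2 comparisons.

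NRF2, encoded by Nfe2l2, drives many antioxidant genes, and Keap1 holds it in check. Nfe2l2 had 91.8 scaled CPM in the paraquat library against 101 in the control (0.908-fold, 0.759 to 1.08), and Keap1 had 93.1 and 89.2. Of the 18 NRF2 pathway genes 1 was at least 1.5-fold higher in the paraquat library and none lower, beside 9.31% and 10.5% of all genes, and their median log2 ratio was -0.05. That gene was the carbonyl reductase gene Cbr3, with 48.1 scaled CPM in the paraquat library against 25.3 in the control (1.90-fold, 1.41 to 2.57). The ferritin genes Ftl1 (1.39-fold) and Fth1 (1.38-fold) followed. Length-corrected, the log2 ratios were 0.68 for Cbr3, 0.16 for Ftl1 and 0.10 for Fth1, in place of 0.91, 0.47 and 0.46. In mastoparan over control Cbr3 was 1.46-fold higher (1.08 to 1.98), and no gene of this list was past 1.5-fold there or in CypD over Flag.

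Of the 14 glutathione genes, 13 were above 0 in the paraquat comparison, where 47.5% of all genes were, and 2 were at least 1.5-fold higher (9.31% of all genes), with a median of 0.42 (0.15 with the length trend removed). Gpx4, the lipid hydroperoxide peroxidase, had 938 scaled CPM in the paraquat library against 605 in the control (1.55-fold, 1.46 to 1.65), and its length-corrected log2 ratio was 0.27. Gstp1 was 1.57-fold higher, and 62.5% of its sequence windows lie in other genes, so its counts are uncertain. The length-corrected log2 ratio of Gstp1 was 0.20 in place of 0.65. Ccs, the chaperone that gives copper to Sod1, had 93.6 scaled CPM in the paraquat library against 69.4 in the control (1.35-fold, 1.11 to 1.64), and its length-corrected log2 ratio was 0.19. It was among 10 measured metal-supply genes, of which 4 were at least 1.5-fold higher (9.31% of all genes), with a median of 0.30 (0.09 with the length trend removed). Atox1 (1.58-fold), Cox17 (1.57-fold) and Mt1 (1.56-fold) had length-corrected log2 ratios of 0.13, 0.11 and 0.10.

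The peroxisome list, of the organelle that holds catalase, had 16 measured genes and a median of -0.09 in the paraquat comparison. None of them was past 1.5-fold there, and Pex19, an import factor for membrane proteins, was 1.27 times lower (1.04 to 1.54). In CypD over Flag 1 peroxisome gene was at least 1.5-fold higher, Pex16 with 88 against 42 counts. In mastoparan over control no peroxisome gene was past 1.5-fold. Among 12 measured sources of superoxide and hydrogen peroxide, 2 were at least 1.5-fold higher and 2 lower in the paraquat library, beside 9.31% and 10.5% of all genes. Cyba, a membrane subunit of NADPH oxidases, had 158 scaled CPM in the paraquat library against 95.7 in the control (1.65-fold, 1.41 to 1.93), and its length-corrected log2 ratio was 0.27 in place of 0.72, which is not past 1.5-fold. Of 10 FOXO, PGC-1 and sirtuin regulators none was past 1.5-fold there, and the median was -0.25 (-0.11 with the length trend removed).

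**Figure D5:**
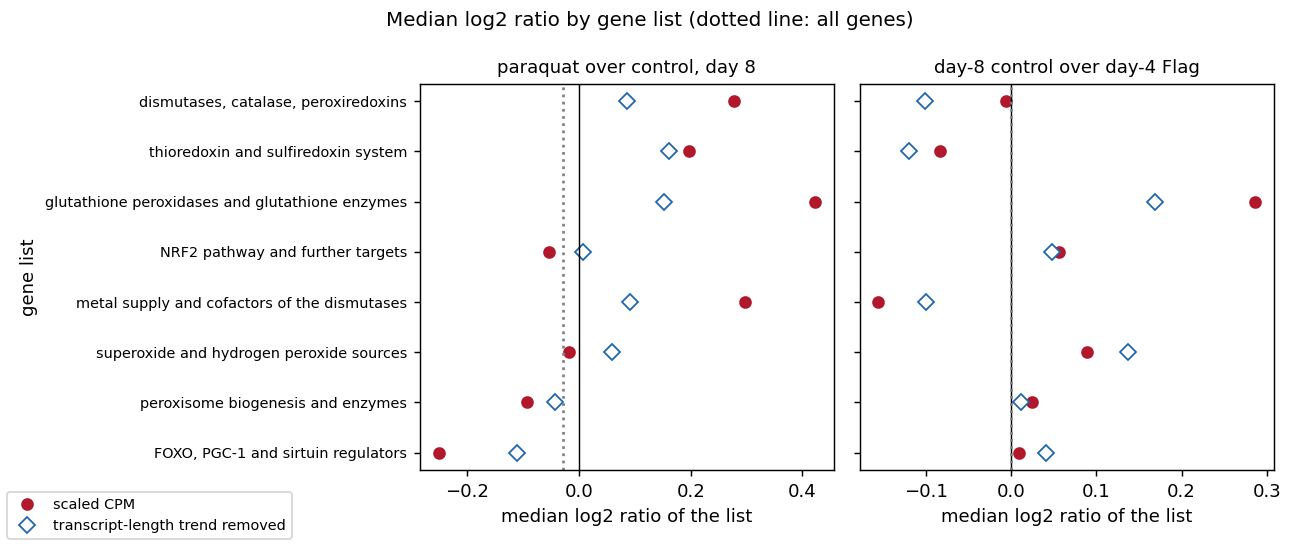
Median log2 ratio of the 10 enzyme genes and of 7 lists of related genes for paraquat over control (left) and day-8 control over day-4 Flag (right). Filled circles are scaled CPM, open diamonds have the transcript-length trend removed, and the dotted line is the median of all genes. In the left panel the glutathione list is highest at 0.42, and it lies at 0.15 with the trend removed.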

How the data were processed

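RNA sequencing of 5 mouse fibroblast libraries was analysed. Per the labels' protocols, Trizol was used to harvest RNA and an Illumina TruSeq kit to build libraries. Per the submitters' processing notes, Bowtie2 2.2.5 and mm10 were used. For the counting program and its gene models, a name was not given in the sources used here. Each deposited table holds, per the file headers, 3 measures of each gene (expected count, TPM and FPKM), with an average and an effective length in bases (other columns). The deposited FPKM was not used.

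Symbols came from GENCODE M21 (28756 of 29267 IDs). Expected counts were rounded and scaled by TMM factors (edgeR 4.0.16, R 4.3.3). Log2 ratios carry a pseudocount of 0.5 CPM and cover genes averaging 1 CPM or more in the 2 libraries compared. Folds carry none. Their 95% intervals follow from the exact Clopper-Pearson interval for how a gene's counts divide between both libraries, and cover counting error only. Amplified reads are not independent molecules, so the intervals can be too narrow even for that error. Uncertainty in how reads were assigned to genes is left out too. For the length trend, medians of 40 length bins were subtracted. Shared windows of 49 bases were counted on either strand in 82533 of 84205 transcripts of the tables. Python 3.11.15, numpy 2.4.6, scipy 1.17.1, pandas 2.3.3 and matplotlib 3.10.9 were used, and the code was tested on simulated data.

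The design had 1 library per group, so 5 comparisons were described without a test. All 10 genes are reported. Of each related list up to 3 genes are named by size among those with at least 5 CPM and an interval that leaves out 1, and Nfe2l2, Keap1, Txn1, Txnrd1, Srxn1, Ccs and Ppif always. Of the genes so chosen, 1 is not reported here. The genes and lists were chosen with earlier results of these data known. 12 alternatives were listed at the start and 1 was added after seeing the data.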

Additional observations from a re-analysis of the deposited data

How the results depend on the processing

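No paired analysis was possible because each group has 1 library. The alternatives were library totals, DESeq2 1.42.0 size factors, deposited TPM, upper-quartile factors, a minimum of 5 CPM or none, pseudocounts of 0.1 and 2 CPM, removal of length or of length and GC trends, scaling without the 20 most abundant genes, and summing with near copies or, added later, with overlapping genes. No gene shared enough windows for the near-copy sum to change a count. Of 647 values of single genes under an alternative, 598 stayed within the counting interval of the reported value and 49 did not. The filters and the near-copy sum leave a member's ratio as it is, so their values could not move. For paraquat over control, 9 of 10 values moved out on deposited TPM, 5 with either trend removal and 3 with library totals. For mastoparan over paraquat, 8 did on deposited TPM and 4 with either trend removal. No other comparison had more than 3 in any setting. The median of the 10 genes for paraquat over control was -0.066 on deposited TPM, and that for mastoparan over paraquat was 0.13, where the medians of all genes were -0.28 and 0.22. The count of members past 1.5-fold for paraquat over control was 0 with library totals, with the length trend removed, with the length and GC trends removed, with the most abundant genes left out and with overlapping genes summed. With a minimum of 5 CPM it was 0 for CypD over Flag and 0 for the day-8 control over Flag, since Sod3 was filtered out. For the day-8 control over Flag it was 2 with upper-quartile factors, with the most abundant genes left out and with either trend removal. The gene beside Sod3 was not the same in these settings. It was Prdx5, higher, with either change of scaling. With the length trend or the length and GC trends removed it was Prdx4, lower, at log2 ratios of -0.63 and -0.62. On deposited TPM it was 1 for paraquat over control, as reported, but the gene was Cat and not Prdx5. The cause of these shifts was not tested beyond what each setting changes. Depth limits Sod3 most, where 3 counts equal 0.869 to 1.30 CPM.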

Other observations

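Genes of the related lists, named for the size of their ratio, also differed between the day-8 control and the day-4 Flag library, where day and experiment cannot be told apart. The metallothionein genes, which bind zinc and copper, were lower: Mt1 had 440 counts in the day-8 control and 762 in the Flag library (2.11 times lower, 1.87 to 2.38), and Mt2 had 276 and 509 in the same libraries (2.24 times lower, 1.93 to 2.61). The oxidase genes of the endoplasmic reticulum, which make hydrogen peroxide during disulfide formation, were higher: Ero1l by 2.21-fold (1.81 to 2.71) and Ero1lb by 2.52-fold (1.64 to 3.98). Gclc, the catalytic subunit of glutathione synthesis, was 2.08 times lower (1.51 to 2.89), and the glutathione transferase gene Gsta4 was 2.64-fold higher (2.37 to 2.94). Past 1.5-fold were, of the 20 thioredoxin system genes, 2 higher and 4 lower, of the 14 glutathione genes 3 higher and 2 lower, and of the 11 metal-supply genes 1 higher and 4 lower, beside 20.04% and 13.8% over all genes.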
